A study of Homo sapiens with 6 samples.

Results

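Aminoacyl-tRNA synthetases are the enzymes that load each amino acid onto its tRNA. They were taken as the protein-coding genes whose symbols name a synthetase by its amino acid letter (AARS to YARS, with or without a final 2), together with EPRS, FARSA, FARSB and TARSL2. The rule found 38 of the 58735 genes in the table, 21 that serve the cytosol and 17 mitochondrial enzymes whose symbols end in 2. TARSL2, a paralog of the threonyl enzyme TARS, was counted with the cytosolic enzymes because its final 2 does not mark the mitochondrial form. RNA-seq was performed on PC9-BrM3 cells, a brain-metastatic derivative that was obtained from the human lung adenocarcinoma line PC9 by repeated left ventricular injection in immunodeficient mice and recovery from the brain. The BrM3-shAKR1B10 group (3 libraries) carried an shRNA against AKR1B10, an aldo-keto reductase, in the LV2 lentiviral vector, and the BrM3-shNC group (3 libraries) carried a negative control shRNA. The labels call the first group AKR1B10 knockdown and the control WT, and both were kept in routine culture without drug. The comparison asks how the loss of AKR1B10 mRNA was accompanied by changes in the tRNA charging enzymes. It rests on 1 shRNA against AKR1B10 per the figure legends of the study. No source used here says that the libraries of a group came from separate cultures, so the p-values measure only the spread between these libraries, which may be technical.

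Each synthetase recognizes its tRNAs and joins the matching amino acid to their 3′ end with ATP, which sets the accuracy of the genetic code. The cytosolic and mitochondrial protein synthesis machineries mostly use separate nuclear-encoded enzymes for the same amino acid, and the mitochondrial ones are imported after synthesis. GARS and KARS supply both compartments from 1 gene each, and mitochondria lack a glutaminyl enzyme of their own because a glutamyl-tRNA amidotransferase makes their glutaminyl-tRNA. Many cytosolic enzymes are known as targets of ATF4, the transcription factor induced when amino acids run short.

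Reads on genes numbered 16964504 in the shallowest library and 18709028 in the deepest, and the synthetases together took 0.382% to 0.390% of them in BrM3-shAKR1B10 and 0.399% to 0.402% in BrM3-shNC. Levels are FPKM, read fragments per kilobase of gene scaled to a common library size, which corrects for gene length. The floor of 3 reads was worth 0.164 to 0.177 FPKM in a gene of 1000 bases. AKR1B10 was at 108.2, 107.2 and 110.2 FPKM in BrM3-shAKR1B10 against 798.7, 775.0 and 772.0 FPKM in the control libraries, and its log2 fold change was -2.85 ± 0.03 (SE; limma, adjusted p = 1.6e-07). The epithelial genes KRT8, KRT18, KRT19, EPCAM and CDH1 were expressed in all libraries and the lung lineage factor NKX2-1 was near 0 (0.15 against 0.16 FPKM). Of 5 fibroblast markers COL1A2, DCN and LUM were at 0 in every library, and the summed level of the 5 was 1.20 to 1.35 FPKM against 2.03 to 2.05 FPKM. Nearly all of this sum was COL1A1, a collagen gene, which was lower at 1.22 ± 0.0963 against 1.98 ± 0.0302 FPKM (log2 fold change -0.67; limma, adjusted p = 0.0032). The 6 blood and endothelial markers summed to 0.484 to 0.553 FPKM against 0.626 to 0.882 FPKM, with LYZ at 0. The 6 brain markers, which were led by MBP with GFAP near 0, summed to 2.65 to 2.76 FPKM against 3.47 to 3.70 FPKM. All 3 sums were thus lower in BrM3-shAKR1B10, as was the share of reads on synthetases, and their part in the results below was not tested. In bulk samples, fewer cells of a type and less RNA per cell cannot be told apart.

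Genes were tested where their mean over the 6 libraries was at least 1 FPKM, which 37 of the 38 synthetases passed. Fold changes are differences of mean log2(FPKM + 0.1), BrM3-shAKR1B10 minus BrM3-shNC, and p-values were adjusted by the Benjamini-Hochberg method over all 13150 genes tested with limma. A gene passed the test at an adjusted p under 0.05 and was called where the log2 fold change was also beyond 0.5 in size. Of the 37 synthetases, 3 were called lower, IARS2 and VARS among them, beside 7.45% of all genes tested, and 0 were called higher beside 5.83%. At any size, 12 synthetases fell, beside 23.1% of all genes, and 5 rose, beside 19.4%. The other 20 did not pass. In 15 synthetases every BrM3-shAKR1B10 library was below every BrM3-shNC library, as in 29.2% of all genes, and in 8 every one was above, as in 25.5%. The median log2 fold change was -0.09 over the 37 synthetases and -0.01 over all genes tested. The synthetases therefore moved in both directions and mostly by small amounts. The split of 12 lower and 5 higher was 9 and 7 after rescaling to TPM (FPKM scaled to the same sum in every library) and 10 and 7 after quantile normalization. The count called lower was 1 with TPM and 1 with a pseudocount of 1 in place of 0.1.

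**Figure D1:**
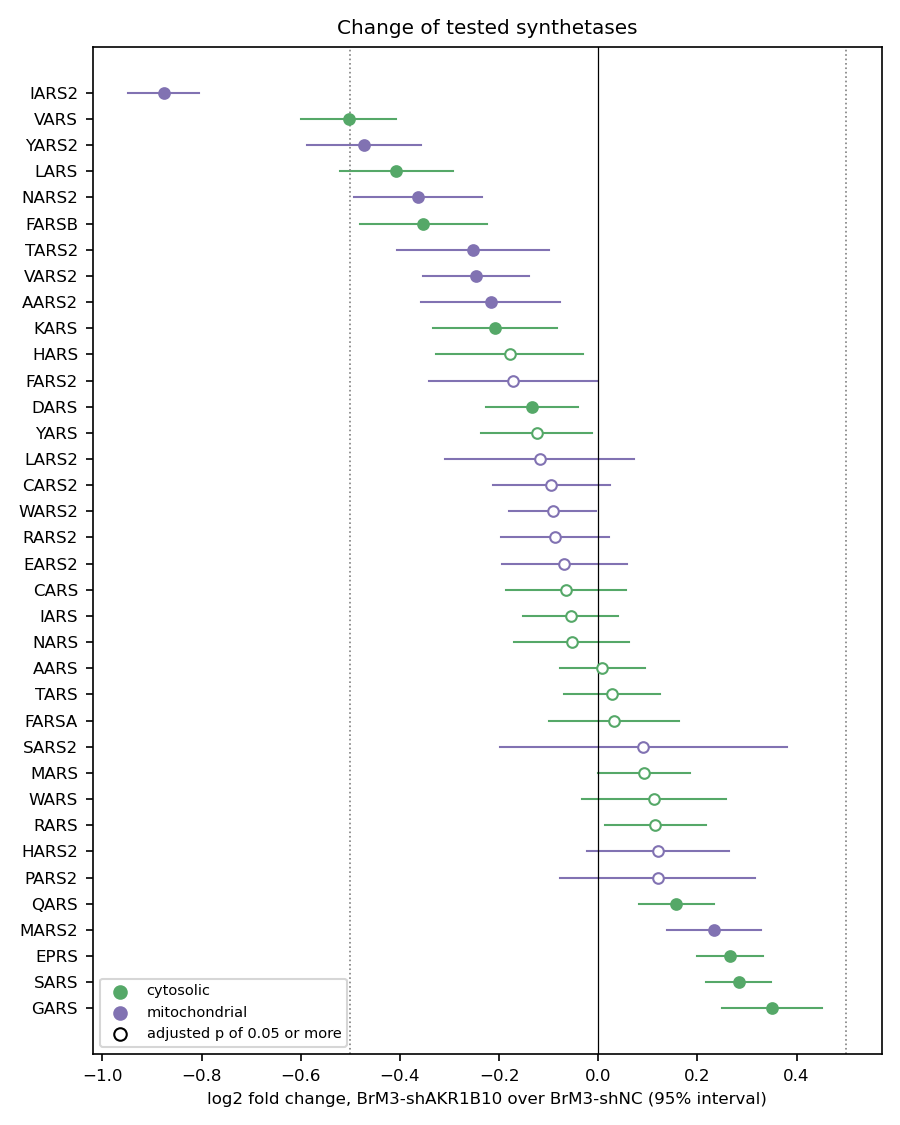
Log2 fold change of the tested synthetases described here (horizontal axis, BrM3-shAKR1B10 over BrM3-shNC) with its 95% interval from limma, green for cytosolic and purple for mitochondrial enzymes. Filled points passed an adjusted p under 0.05 and dotted lines mark a log2 fold change of 0.5 in each direction. IARS2 at -0.88 stands apart at the top, and GARS at 0.35 is the highest.

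Among the mitochondrial enzymes 7 of 17 (41.2%) fell and 1 (5.88%) rose, beside 23.1% and 19.4% of all genes, with a median log2 fold change of -0.12. IARS2 (ENSG00000067704), which charges mitochondrial tRNA with isoleucine, changed most of all synthetases. It was at 43.7, 45.1 and 43.7 FPKM in the BrM3-shAKR1B10 libraries and at 80.6, 80.1 and 82.6 FPKM in the BrM3-shNC libraries. The groups were far apart relative to the spread within them (44.2 ± 0.830 against 81.1 ± 1.32 FPKM, SD, n = 3 each). The log2 fold change was -0.88 ± 0.03 (SE; limma, adjusted p = 1.1e-05), which left 54.4% of the control level. In BrM3-shNC IARS2 had the highest mean level of all 38 synthetases, and in BrM3-shAKR1B10 it ranked 6, with the bifunctional glutamyl-prolyl enzyme EPRS at rank 1.

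YARS2, the mitochondrial tyrosyl enzyme, was at 13.99, 12.95 and 14.02 FPKM against 19.7, 18.3 and 19.1 FPKM, and fell by 0.47 on the log2 scale (limma, adjusted p = 0.00047). Without BrM3-shNC replicate 2, its lowest control library, YARS2 was called at -0.50. NARS2, the asparaginyl enzyme, was at 4.54, 4.67 and 4.74 FPKM against 5.74, 6.38 and 5.94 FPKM, and fell by 0.36 (limma, adjusted p = 0.0023).

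TARS2, VARS2 and AARS2 fell by less. The threonyl enzyme TARS2 went from 12.5 ± 0.934 to 10.5 ± 0.444 FPKM, a log2 fold change of -0.25 (limma, adjusted p = 0.020). The valyl enzyme VARS2 went from 7.93 ± 0.160 to 6.66 ± 0.254 FPKM, a log2 fold change of -0.25 (adjusted p = 0.0052). The alanyl enzyme AARS2 went from 7.34 ± 0.446 to 6.30 ± 0.240 FPKM, a log2 fold change of -0.22 (adjusted p = 0.025). In all 3 the groups did not overlap. TARS2 and AARS2 lost the test when BrM3-shAKR1B10 replicate 1 or 2 or BrM3-shNC replicate 2 or 3 was left out (limma, adjusted p from 0.052 to 0.078), whereas VARS2 passed in all 17 alternatives. With TPM, TARS2 and AARS2 also lost the test (limma, adjusted p = 0.071 and 0.091), as did AARS2 without the filter on mean FPKM (0.055).

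MARS2, the methionyl enzyme of mitochondria, was the only mitochondrial synthetase that rose. It was at 9.50, 9.32 and 9.30 FPKM in BrM3-shAKR1B10 against 8.01, 7.70 and 8.17 FPKM in BrM3-shNC, with no overlap. Its log2 fold change was 0.23 ± 0.04 (SE; limma, adjusted p = 0.0039). The remaining 9 mitochondrial enzymes did not pass, with log2 fold changes of -0.17 for the phenylalanyl enzyme FARS2, -0.12 for LARS2 (leucyl), -0.09 for CARS2 (cysteinyl), -0.09 for WARS2 (tryptophanyl), -0.09 for RARS2 (arginyl) and -0.07 for EARS2 (glutamyl). They were 0.09 for SARS2 (seryl), 0.12 for HARS2 (histidyl) and 0.12 for PARS2 (prolyl). SARS2 was the lowest mitochondrial synthetase at 1.84 ± 0.0648 FPKM against 1.73 ± 0.248 FPKM, and its 95% interval ran from -0.20 to 0.38, the widest of the synthetases.

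**Figure D2:**
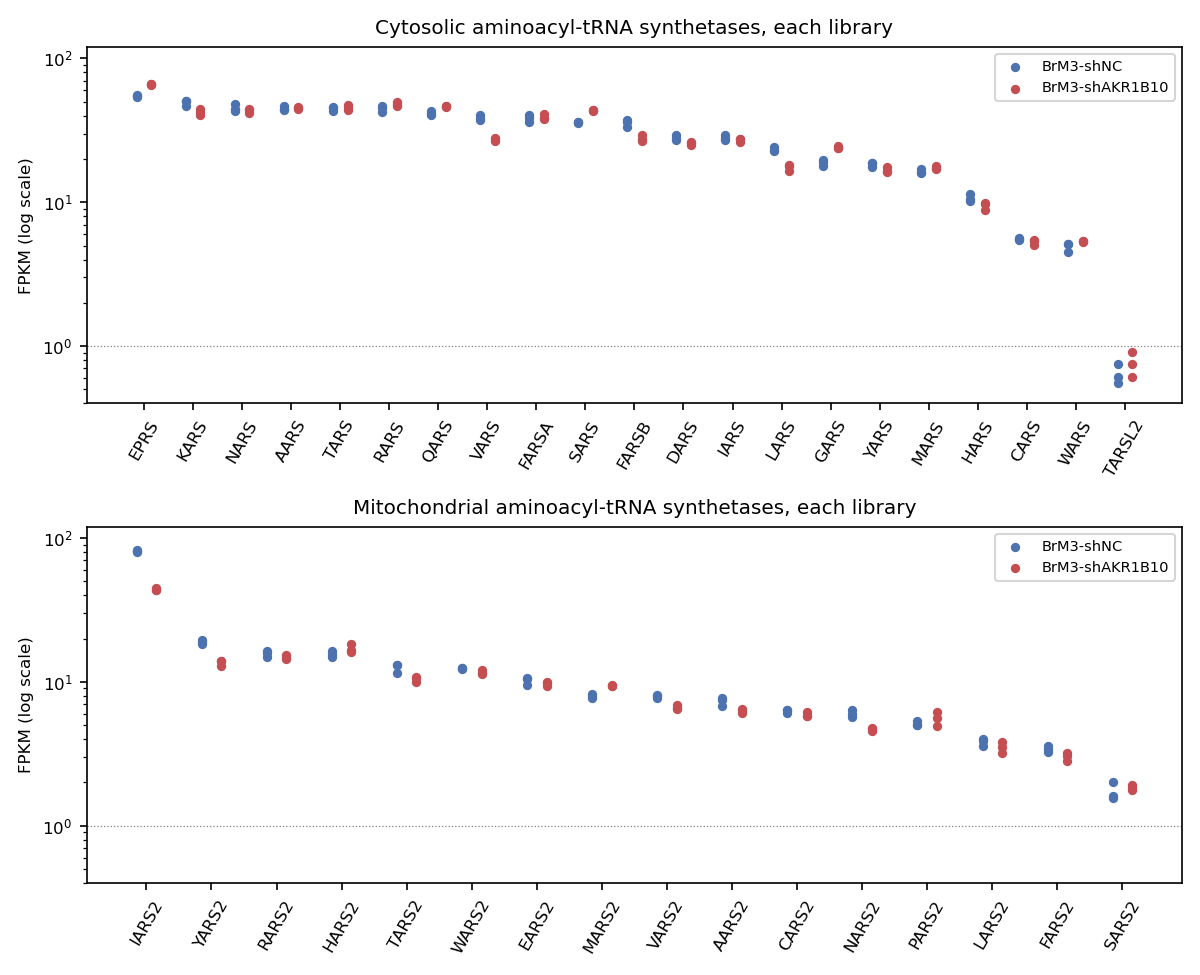
FPKM of the synthetases described here on a log axis, 1 point per library, with BrM3-shNC in blue and BrM3-shAKR1B10 in red; the dotted line is the mean level of 1 FPKM needed for the test. IARS2 is the highest enzyme in the control libraries and TARSL2 lies under the line in every library.

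The compartments differed in level and in how their sums moved. In BrM3-shNC the median level was 35.6 FPKM over the 21 cytosolic enzymes, with a range from 0.639 for TARSL2 to 54.9 for EPRS. The median over the 17 mitochondrial enzymes was 7.93 FPKM, from 1.73 for SARS2 to 81.1 for IARS2. The summed level of the mitochondrial enzymes was 170.4, 174.1 and 173.3 FPKM in BrM3-shAKR1B10 against 221.1, 220.6 and 225.6 FPKM in BrM3-shNC. The summed level of the cytosolic enzymes was 615.0, 629.8 and 627.9 FPKM against 633.9, 625.6 and 624.3 FPKM. The mitochondrial sums did not overlap between the groups and the cytosolic sums did. The ratio of the cytosolic to the mitochondrial sum was 3.62 ± 0.00716 in BrM3-shAKR1B10 and 2.82 ± 0.0508 in BrM3-shNC (SD, n = 3 each). IARS2 accounted for 74.2% of the mitochondrial difference of -49.8 FPKM. It made up 36.5% ± 0.145 of the mitochondrial sum in the control libraries and 25.6% ± 0.358 after silencing. Without IARS2, the other mitochondrial enzymes summed to 128.5 ± 1.53 FPKM against 141.3 ± 1.46 FPKM, or 90.9% of the control, and the ratio was 4.86 ± 0.0196 against 4.44 ± 0.0730.

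**Figure D3:**
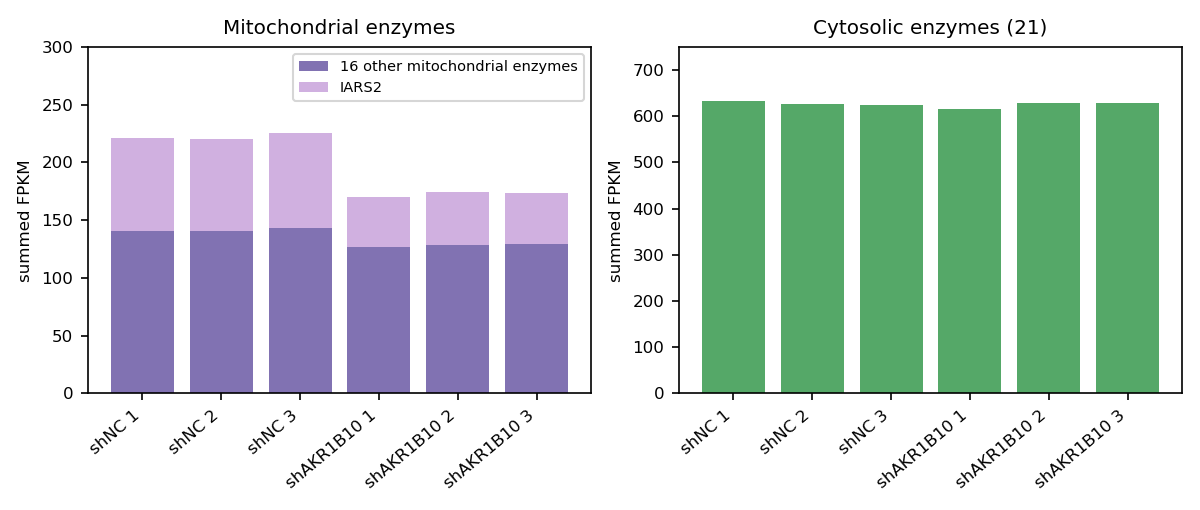
Summed FPKM in each library of the mitochondrial enzymes (left, IARS2 in light purple above the other 16 enzymes) and the 21 cytosolic enzymes (right); both axes start at 0. The mitochondrial sum is 170.4 to 174.1 FPKM in the 3 BrM3-shAKR1B10 libraries and 220.6 to 225.6 FPKM in the 3 BrM3-shNC libraries, while the cytosolic sums overlap.

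Of the 20 cytosolic enzymes tested, 5 fell (25%) and 4 rose (20%), shares near the 23.1% and 19.4% of all genes, with a median log2 fold change of -0.02 that turned positive under TPM, quantile normalization and no filter. VARS (ENSG00000204394), the valyl enzyme that binds elongation factor 1, was the only one called. It was at 26.8, 27.3 and 28.2 FPKM in BrM3-shAKR1B10 against 37.5, 38.7 and 40.6 FPKM in BrM3-shNC, with no overlap. Its log2 fold change of -0.50 ± 0.04 (SE; limma, adjusted p = 0.00018) lay at the threshold. The call was lost without BrM3-shAKR1B10 replicate 1 (-0.49), without BrM3-shNC replicate 3 (-0.47), with a pseudocount of 1 (-0.49), with TPM (-0.47) and with quantile normalization (-0.43), each time on the size of the change, with the adjusted p still under 0.05.

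LARS, the leucyl enzyme that is also known as a leucine sensor upstream of mTORC1, was at 16.5, 17.9 and 18.1 FPKM against 24.0, 22.6 and 22.9 FPKM. It fell by 0.41 on the log2 scale (limma, adjusted p = 0.00087). FARSB, the beta subunit of phenylalanyl-tRNA synthetase, was at 27.6, 29.4 and 26.6 FPKM against 36.0, 37.1 and 33.6 FPKM and fell by 0.35 (adjusted p = 0.0025). Its partner FARSA, the catalytic alpha subunit of the same heterotetramer, was at 37.6, 38.3 and 41.1 FPKM against 35.9, 38.4 and 40.3 FPKM, which overlap (log2 fold change 0.03, adjusted p = 0.67). The ratio of FARSA to FARSB mRNA was 1.36, 1.31 and 1.55 in BrM3-shAKR1B10 and 0.997, 1.03 and 1.20 in BrM3-shNC. These ratios did not overlap, and the exact two-sided permutation p of 0.1 is the smallest that 3 against 3 libraries can give; this ratio was chosen after its values were seen. The lysyl enzyme KARS (42.5 ± 2.22 against 49.1 ± 2.32 FPKM) and the aspartyl enzyme DARS (25.6 ± 0.532 against 28.1 ± 1.05 FPKM) fell by 0.21 and 0.13 on the log2 scale, with adjusted p = 0.019 and 0.032 in limma. KARS lost the test without BrM3-shAKR1B10 replicate 1 or 2 or BrM3-shNC replicate 1 or 3 (adjusted p from 0.051 to 0.059), and DARS without any 1 library other than BrM3-shNC replicate 3 (0.058 to 0.098). Over all 17 alternatives KARS passed in 12 and DARS in 8, with largest adjusted p of 0.064 and 0.21 (limma).

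The 4 cytosolic enzymes that rose were GARS, SARS, EPRS and QARS. GARS (ENSG00000106105), the glycyl enzyme of both compartments, was at 23.8, 24.5 and 23.9 FPKM in BrM3-shAKR1B10 against 19.7, 19.0 and 17.9 FPKM in BrM3-shNC. It had the highest log2 fold change of all synthetases, 0.35 ± 0.04 (SE; limma, adjusted p = 0.00095). SARS, the seryl enzyme that also charges the selenocysteine tRNA with serine, was at 43.2, 44.1 and 43.6 FPKM against 35.9, 36.0 and 35.6 FPKM, a log2 fold change of 0.28 (adjusted p = 0.00038). In both genes the groups were separated by a gap wider than the spread within either group.

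EPRS, which joins glutamate and proline to their tRNAs, was at 65.5, 66.0 and 66.4 FPKM against 55.9, 54.1 and 54.6 FPKM, a log2 fold change of 0.27 (limma, adjusted p = 0.00054). QARS, the glutaminyl enzyme, was at 46.0, 46.7 and 46.7 FPKM against 40.6, 41.5 and 42.8 FPKM, a log2 fold change of 0.16 (adjusted p = 0.0079). These 4 enzymes and MARS2 kept the adjusted p in all 17 alternatives. The 11 cytosolic enzymes that did not pass ranged from -0.18 to 0.11 in log2 fold change. The histidyl enzyme HARS was at -0.18 (adjusted p = 0.056, and 0.033 with the replicate number as a block) and the tyrosyl enzyme YARS at -0.12. CARS (cysteinyl) was at -0.07, IARS (isoleucyl) at -0.06, NARS (asparaginyl) at -0.05, AARS (alanyl) at 0.01 and TARS (threonyl) at 0.03. MARS (methionyl) was at 0.09, WARS (tryptophanyl) at 0.11 and RARS (arginyl) at 0.11. Without BrM3-shNC replicate 1, HARS, YARS and RARS passed (limma, adjusted p = 0.044, 0.042 and 0.039), as did YARS without BrM3-shAKR1B10 replicate 3 (0.049). MARS passed as higher in 2 of the 17 alternatives (limma, smallest adjusted p = 0.025). TARSL2 was at 0.914, 0.749 and 0.615 FPKM against 0.559, 0.748 and 0.610 FPKM, with 47 to 74 reads a library, and was not tested.

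The multisynthetase complex holds 8 cytosolic synthetases on 3 scaffold proteins. Of the 8 enzymes, LARS, KARS and DARS fell (37.5%, beside 23.1% of all genes), EPRS and QARS rose (25%, beside 19.4%), and IARS, MARS and RARS did not pass, with a median log2 fold change of 0.02. The 12 cytosolic enzymes outside the complex that were tested had 2 that fell (VARS and FARSB) and 2 that rose (GARS and SARS), 16.7% each way, with a median of -0.02. The scaffold gene AIMP2 (ENSG00000106305), whose product is the core scaffold of the complex, changed more than any synthetase. It was at 7.27, 6.87 and 6.96 FPKM with AKR1B10 silenced and at 17.9, 18.9 and 20.9 FPKM in the control, and its log2 fold change was -1.44 ± 0.06 (SE; limma, adjusted p = 2.1e-05). The AIMP2 gene overlaps EIF2AK1, a kinase gene on the other strand that also fell. How far the overlap affects the counts of either gene was not tested. EEF1E1, the scaffold also known as AIMP3, fell from 7.33 ± 0.589 to 5.57 ± 0.411 FPKM, a log2 fold change of -0.39 (adjusted p = 0.0077). AIMP1 was at 14.4 ± 1.24 against 16.7 ± 1.47 FPKM and did not pass (log2 fold change -0.22, adjusted p = 0.080). The 3 scaffold genes were lower without overlap, as were 29.2% of all genes.

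The synthetases also fall into 2 unrelated structural classes, which differ in the fold of the catalytic domain. Of the 19 class I enzymes tested 5 fell (26.3%) and 3 rose (15.8%), with a median log2 fold change of -0.09. Of the 18 class II enzymes tested 7 fell (38.9%) and 2 rose (11.1%), with a median of -0.09. Over all genes tested 23.1% fell and 19.4% rose, and the class I shares lay near these. Split by compartment as well, 3 of 9 mitochondrial class I enzymes fell and 1 rose, and 4 of 8 mitochondrial class II enzymes fell and 0 rose. Of the 10 cytosolic class I enzymes tested 2 fell and 2 rose, and of the 10 cytosolic class II enzymes tested 3 fell and 2 rose. No difference between these subgroups was tested.

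Enzymes for the same amino acid were compared within each library as the log2 ratio of the cytosolic to the mitochondrial enzyme (FPKM + 0.1), for 17 pairs. EPRS entered with both EARS2 and PARS2, and FARSA stood for the cytosolic phenylalanyl enzyme. In BrM3-shNC the cytosolic enzyme had the higher mean level in 12 pairs, by up to 20.97 times for SARS over SARS2. The SARS2 level is uncertain, because the gene shares exon bases with AC011455.2 and MRPS12. The mitochondrial enzyme had the higher mean for histidine, cysteine, tryptophan, tyrosine and isoleucine. After silencing the ratio was higher without overlap in 9 pairs, lower without overlap in 4, and overlapped in the other 4. The share of ratios without overlap over other gene pairs was not computed, and among single genes it was 29.2% lower and 25.5% higher. For isoleucine the log2 ratio was -0.71 ± 0.03 in BrM3-shAKR1B10 and -1.53 ± 0.07 in BrM3-shNC (SD, n = 3 each), a difference of 0.82, so IARS went from 0.346 to 0.611 of the IARS2 level. For tyrosine YARS was on average at 0.963 of the YARS2 level in the control, where the log2 ratios of -0.17, 0.03 and -0.03 set no order between them, and at 1.23 times that level after silencing. The differences were 0.35 for tyrosine, 0.33 for glutamate (EPRS over EARS2) and 0.31 for asparagine.

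The 4 pairs in which the ratio was lower were histidine (-0.30), leucine (-0.29), valine (-0.26) and methionine (-0.14). For valine both enzymes fell, VARS by more than VARS2. For leucine LARS fell and LARS2 did not pass, and for methionine MARS2 rose and MARS did not pass. Cysteine, proline (EPRS over PARS2), serine and phenylalanine overlapped. Over the 17 pairs every exact two-sided permutation p was 0.1 or higher, the smallest that 3 against 3 allows, so none can fall below 0.05.

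**Figure D4:**
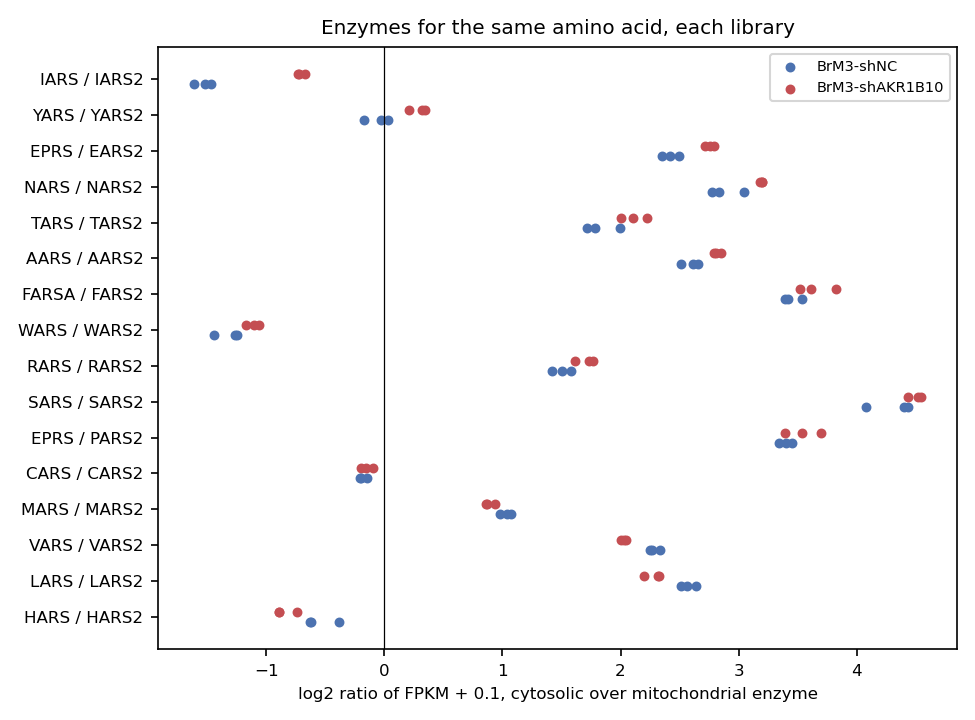
Log2 ratio of the cytosolic over the mitochondrial enzyme for the pairs described here (FPKM + 0.1), 1 point per library, with BrM3-shNC in blue and BrM3-shAKR1B10 in red. Values right of 0 mean that the cytosolic mRNA was the more abundant one; IARS over IARS2 shows the widest gap between the groups, 0.82.

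Some synthetase genes lie close to other genes that changed. Positions here are those of the deposited table, which match the GENCODE 29 annotation on GRCh38. IARS2 lies on the plus strand of chr1:220094102-220148041 and EPRS on the minus strand of chr1:219968601-220046658, 47443 bases apart, and IARS2 fell while EPRS rose. KARS, which fell, starts 857 bases from TERF2IP, a telomere protein gene that rose (log2 fold change 0.38, adjusted p = 0.00052). TERF2IP was named after its values were seen. In all, 11 synthetases start within 1000 bases of a protein-coding gene on the other strand. Both the synthetase and its neighbor passed in the same direction in 1 case and in opposite directions in 1 (KARS).

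Exons overlap another gene in 21 of the 38 synthetases. The source used here does not give whether counting used the strand, so reads from a stretch shared with a gene on the other strand cannot be assigned. The shared part is above 10% of the exon bases in 3 of them. SARS2 shares 46.2% with AC011455.2 and 10.8% with MRPS12, VARS2 shares 22.0% with GTF2H4, and HARS2 shares 11.7% with HARS, so the levels of these genes are uncertain. The share of bases does not bound the share of reads. AC011455.2 held at most 2 reads in a library, whereas MRPS12 held 1188 to 1385 reads and SARS2 only 88 to 119. MARS shares 355 exon bases with DDIT3, the gene of the stress factor CHOP. Of 14 pseudogenes named after a synthetase the highest held 4 reads in any library, at most 0.125% of the reads of its parent gene.

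Promoter sequences, from 250 bases before to 50 bases after the start of each gene, were taken from RefSeq (GRCh38.p14), and 30 of the 38 synthetases were matched in that table. Starts in the promoter results are those of RefSeq, which for CARS2 and MARS lie well inside the gene as placed by GENCODE 29. VARS, LARS, VARS2, AARS2, DARS, YARS and TARSL2 were among those missing from it. A small set of short motifs was searched on both strands. The C/EBP-ATF element, the site through which ATF4 is known to act, was searched as TGATGNAA and was found in 7 of the 30 promoters (23.3%) against 3.62% of the 35116 promoters in the table. Here and below, shares over all promoters were taken with no filter for protein-coding genes, whereas all synthetases are protein-coding. Of the 7, 6 were cytosolic (of 16) and 1 was mitochondrial (of 14). The stretches around these matches are shown because the same letters recur near the start of most of them; capitals mark the match, each line is read 5′ to 3′ on the strand of the gene, and the stretch ends at most 30 bases after the start.

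AARS, chr16:70289660-70289719, minus strand: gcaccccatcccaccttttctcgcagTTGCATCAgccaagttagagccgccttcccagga
CARS, chr11:3057394-3057453, minus strand: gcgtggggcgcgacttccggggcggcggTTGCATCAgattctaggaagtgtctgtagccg
IARS, chr9:92293677-92293736, minus strand: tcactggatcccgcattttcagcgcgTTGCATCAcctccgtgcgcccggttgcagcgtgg
MARS, chr12:57488038-57488097, plus strand: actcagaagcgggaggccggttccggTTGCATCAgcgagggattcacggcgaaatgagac
NARS, chr18:57621807-57621866, minus strand: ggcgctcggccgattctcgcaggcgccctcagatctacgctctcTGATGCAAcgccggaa
TARS, chr5:33440935-33440994, plus strand: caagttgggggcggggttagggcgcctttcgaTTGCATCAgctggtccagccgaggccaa
YARS2, chr12:32756061-32756120, minus strand: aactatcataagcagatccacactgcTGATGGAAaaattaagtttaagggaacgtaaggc

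All 6 cytosolic matches read TGATGCAA or its reverse complement TTGCATCA. In CARS, IARS, MARS, NARS and TARS the match began between 13 bases before and 15 bases after the start, and in AARS and YARS2 it lay further upstream. The 6 cytosolic enzymes with these letters had log2 fold changes of -0.07 to 0.09 and none passed the test, whereas YARS2 fell. The 5 enzymes that rose (GARS, SARS, EPRS, QARS and MARS2) did not hold the letters in this window, which says nothing about sites elsewhere.

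The promoters of IARS2, which fell most, and GARS, which rose most, are shown from 250 bases before to 30 bases after the start for comparison. Capitals mark the ETS core, searched as CCGGAAG, of which CTTCCGG is the reverse complement. IARS2 held none of the 4 motifs and GARS held only the ETS core.

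IARS2, chr1:220093882-220094161, plus strand: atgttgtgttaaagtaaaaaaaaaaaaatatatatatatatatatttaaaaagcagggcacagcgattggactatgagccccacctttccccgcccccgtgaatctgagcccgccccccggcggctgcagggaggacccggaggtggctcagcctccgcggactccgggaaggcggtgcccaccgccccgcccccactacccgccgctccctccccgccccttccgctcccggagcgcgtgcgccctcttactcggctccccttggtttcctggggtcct
GARS, chr7:30594485-30594764, plus strand: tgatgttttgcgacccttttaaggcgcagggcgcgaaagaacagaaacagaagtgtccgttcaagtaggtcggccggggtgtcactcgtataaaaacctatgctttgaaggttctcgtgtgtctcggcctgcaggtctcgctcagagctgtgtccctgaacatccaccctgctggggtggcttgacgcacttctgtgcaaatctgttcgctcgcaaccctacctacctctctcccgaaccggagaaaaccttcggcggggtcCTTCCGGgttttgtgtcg

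HARS and HARS2, the cytosolic and mitochondrial histidyl enzymes, start on opposite strands only 84 bases apart in RefSeq, so their promoter windows share 184 bases. The stretch from 30 bases inside HARS to 30 bases inside HARS2 holds the ETS core once on each strand, again in capitals, and is shown because 1 stretch serves both compartments.

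HARS2, chr5:140691341-140691484, plus strand: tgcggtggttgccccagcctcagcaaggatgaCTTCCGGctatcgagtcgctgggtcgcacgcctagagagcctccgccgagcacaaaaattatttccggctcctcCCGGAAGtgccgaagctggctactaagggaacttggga

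HARS was at 8.84, 9.81 and 9.71 FPKM in BrM3-shAKR1B10 against 10.1, 11.4 and 10.6 FPKM, all lower, and HARS2 was at 16.5, 18.3 and 16.2 FPKM against 15.6, 14.9 and 16.4 FPKM, which overlap. Neither passed the test. The ETS core was present in 14 of the 30 synthetase promoters (46.7%), with the shared HARS and HARS2 site counted in both, against 10.26% of all promoters. It stood in KARS and TARS2, which fell, and in GARS, SARS and MARS2, which rose. The E-box CACGTG was found in CARS2, EARS2, IARS and MARS2 (13.3% against 7.26%), and the NRF1 core CGCATGCG in MARS2 only (3.3% against 2.02%). The synthetase promoters had a median GC content of 62.0%, against 58.7% over all promoters.

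Genes around tRNA charging were described from lists. Of the 9 charging auxiliaries, which edit mischarged tRNAs or make glutaminyl-, formylmethionyl- and selenocysteinyl-tRNA, 7 were tested and 1 fell (14.3%; DTD1, a D-aminoacyl-tRNA deacylase, log2 fold change -0.35, adjusted p = 0.0052). Of 24 genes of tRNA processing and export, 23 were tested, of which 4 fell (17.4%) and 3 rose (13.0%), below the shares over all genes (23.1% and 19.4%), with a median log2 fold change of -0.05. RPP30, a protein subunit of RNase P, was the one called, at 6.30 ± 0.516 against 9.07 ± 0.426 FPKM (log2 fold change -0.52, adjusted p = 0.0014). Of 9 mitochondrial translation factors 2 fell (22.2%, near the 23.1% of all genes) and 0 rose, with a median of -0.09.

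The amino acid response was described on the kinases that phosphorylate eIF2 alpha, on genes around them and on ATF4 targets, each beside the 23.1% of all genes that fell and the 19.4% that rose. Of the 4 kinases EIF2AK1 and EIF2AK4 fell (log2 fold changes -0.29 and -0.21), EIF2AK3 rose (0.22) and EIF2AK2 did not pass (-0.11). EIF2S1, which encodes the kinase substrate, fell by 0.19, and PPP1R15A and PPP1R15B, phosphatase subunits that oppose the kinases, fell by 0.36 and 0.35, while the GCN2 activator GCN1 did not pass (-0.09). EIF2AK4, the kinase GCN2 that senses uncharged tRNA, was at 2.73 ± 0.161 against 3.16 ± 0.0662 FPKM (log2 fold change -0.21, adjusted p = 0.047). Of 32 ATF4 targets 28 were tested, of which 11 rose (39.3%) and 4 fell (14.3%), with a median of 0.12. ATF4 itself, which is not counted among them, was at 168.0 ± 3.14 against 152.7 ± 1.81 FPKM and rose by 0.14 on the log2 scale (adjusted p = 0.0096).

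Of the 28 ATF4 targets tested, 3 were called higher (10.7%) and 1 lower (3.57%), beside 5.83% and 7.45% of all genes. CHAC1, a glutathione-degrading enzyme, was at 1.84 ± 0.115 against 0.765 ± 0.240 FPKM (log2 fold change 1.21, adjusted p = 0.0077). GPT2, the mitochondrial alanine aminotransferase, was at 14.3 ± 0.133 against 9.13 ± 0.0916 FPKM (0.64, adjusted p = 3.1e-05), and PSAT1, an enzyme of serine synthesis, at 78.7 ± 1.57 against 52.1 ± 0.850 FPKM (0.60, adjusted p = 3.0e-05). CBS, which makes cystathionine from serine and homocysteine, was the one called lower, at 0.749 ± 0.165 against 1.54 ± 0.389 FPKM (-0.94, adjusted p = 0.020). DDIT3 did not pass (2.42 ± 0.599 against 2.61 ± 0.152 FPKM, adjusted p = 0.58), and ASNS, the asparagine synthetase that makes the amino acid itself, was at 0.551 ± 0.111 against 0.267 ± 0.1001 FPKM, under the level for the test. Of the ATF4 targets tested 39.3% rose, beside 13.5% of all synthetases tested, 20% of the cytosolic ones and 19.4% of all genes. These differences were not tested.

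WARS is known to be induced by interferon gamma, and a list of that response was therefore set beside it. WARS was at 5.35, 5.37 and 5.27 FPKM against 5.12, 5.14 and 4.53 FPKM, all higher, but did not pass (adjusted p = 0.18). Of 10 interferon-gamma response genes 4 were tested, of which 2 fell and 0 rose, beside 23.1% and 19.4% of all genes. TAP1, a peptide transporter, was called lower at 3.33 ± 0.252 against 5.23 ± 0.162 FPKM (log2 fold change -0.64, adjusted p = 0.00055). IRF1 was at 0.699 ± 0.170 against 0.750 ± 0.104 FPKM and IDO1 at 0 in every library.

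**Figure D5:**
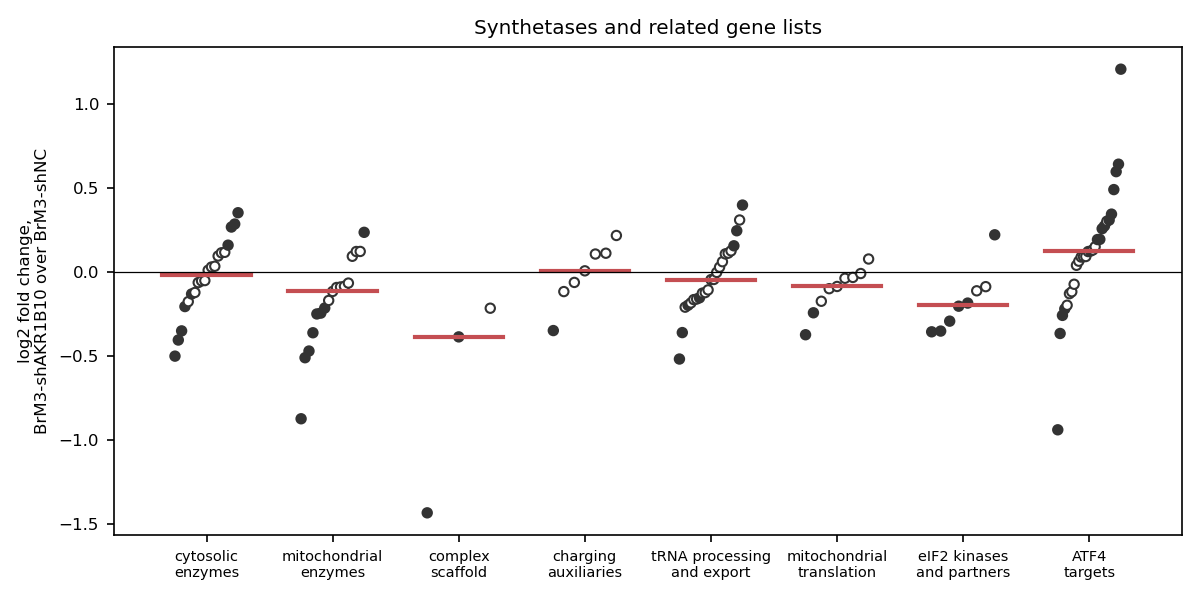
Log2 fold change of each tested gene in the 2 synthetase groups and 6 related gene lists, with filled points for an adjusted p under 0.05 in limma and a red bar at the median of each list. The median lies at -0.12 for the mitochondrial enzymes and at 0.12 for the ATF4 targets, and AIMP2 at -1.44 is the lowest point.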

How the data were processed

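RNA-seq of 6 libraries was analysed, 3 per group by the titles in the labels. The authors purified mRNA with poly-T beads, aligned reads with HISAT2 2.0.5 and counted them per gene with featureCounts 1.5.0-p3 (versions per the submitters' processing notes), and deposited 1 table of FPKM values with gene length and position; all columns of samples were used. Strand settings and the treatment of reads on overlapping genes are not given in the sources used here. Whole reads were recovered from FPKM and gene length for 100% of values (tolerance 0.1 reads). The floor covers counting error only, and the 95% intervals of fold changes come from the spread between libraries.

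The test was limma (version 3.58.1; lmFit, then eBayes with a trend; R version 4.3.3) with a pseudocount of 0.1 on the log2 scale, since the deposited values are not counts, for genes with a mean of at least 1 FPKM. The thresholds are those the study used. Ratios were tested by exact permutation over libraries (Python 3.11.15, scipy 1.17.1). On simulated data with 13150 genes in the test, 183 of 200 genes changed by a log2 fold of 1 were called with the right sign. Among the unchanged genes 3 were called. Every synthetase changed by less than a log2 fold of 1 (IARS2 most, at -0.88), and recovery of smaller log2 folds was not tested. The replicate numbers did not pair the libraries (correlations of deviations from -0.0155 to 0.00388). Replicate libraries differed by more than counting noise (chi-square of 2.68 to 6.43 per gene). BrM3-shNC replicate 1 stood furthest from its group, at 5.73 and 6.43 against the other control libraries. All other pairs within a group were at 2.68 to 2.97.

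The members and lists were chosen with earlier results of these data known. Named are every synthetase, AKR1B10, the called genes of each list (at most 5 each way), and DDIT3, ATF4, ASNS, AIMP1, AIMP2, EEF1E1, EIF2AK4 and IRF1, and others only where said; DTD1, MBP, the eIF2 kinase genes and the marker genes were named to describe their lists. The alternatives were other pseudocounts, filters, scalings (TPM, median of ratios, quantile) and fold thresholds, eBayes without a trend, voom on recovered reads, the replicate block, protein-coding genes only, each library left out, and other splits of the compartments. Protein sequences were not analysed here. Some genes covered by these rules enter the counts and sums but are not reported here.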

Additional observations from a re-analysis of the deposited data

How the results depend on the processing

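IARS2 was called in all 17 refits. Of the 12 synthetases that fell, 8 kept an adjusted p under 0.05 in every refit, and so did all 5 that rose. None of these 17 changed sign. The count of synthetases called lower, 3 as reported, was 1 with a pseudocount of 1, 1 with TPM, 2 with quantile normalization, 0 with a log2 fold change beyond 1 and 12 at any size, and between 2 and 4 with 1 library left out. The count called higher, 0 as reported, was 5 at any size. VARS lay near the threshold of 0.5, and ran from -0.53 to -0.43 over the alternatives. The number that fell was 8 to 12 and the number that rose 5 to 6 with 1 library left out, with 8 that fell without BrM3-shAKR1B10 replicate 1 or replicate 2.

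The median log2 fold change of the cytosolic enzymes, -0.0226, was 0.0082 with no filter, 0.0451 with TPM and 0.0346 with quantile normalization, so it has no stable direction. That of the mitochondrial enzymes, -0.1182, was -0.0951 with a pseudocount of 1, -0.1557 at a mean of at least 5 FPKM and -0.0838 with TPM, and ran from -0.1773 (without BrM3-shAKR1B10 replicate 2) to -0.0889 (without BrM3-shAKR1B10 replicate 1) with 1 library left out. IARS turned to 0.0072 with quantile normalization. AARS ran from -0.0115 to 0.0368 and FARSA from -0.0124 to 0.0710 with 1 library left out. The cause was not tested. With the replicate block, 3 synthetases were called lower and 0 higher, and HARS passed (adjusted p = 0.0328, limma); no other call changed. With 3 libraries a group and 1 shRNA, off-target effects of that shRNA sequence and effects of AKR1B10 cannot be told apart.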
